A study of Mus musculus with 16 samples.

Results

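Primary cilia are built and maintained by intraflagellar transport (IFT), and 41 mouse genes of this machinery were followed through rod differentiation in retinal organoids. They were chosen by name and comprised 16 subunits of the IFT trains, 11 Bardet-Biedl syndrome (BBS) genes, 6 motor subunits and 8 genes of the transition zone and basal body. All 41 were found among the 32166 genes of the deposited gene table, and all were above 0 in each of 16 libraries. Retinal organoids were grown from induced pluripotent stem cells (iPSCs), made by lentiviral delivery of Oct3/4, Sox2, Klf4 and c-Myc to embryonic fibroblasts, or from embryonic stem cells (ESCs) taken from blastocysts. Both carried Nrlp-GFP, a fluorescent reporter driven by the promoter of the rod transcription factor Nrl, and GFP-positive cells were flow sorted and profiled by polyA RNA-seq. There were 7 iPSC libraries, with 2 from day 18, 1 from day 21, 2 from day 25 and 1 each from days 28 and 35. The 9 ESC libraries comprised 3 from day 18, 3 from day 21 and 1 from each later day. All cultures shared the reporter and a modified SFEBq protocol with low oxygen at the start, taurine and retinoic acid. The labels give no genotype contrast and are silent on whether libraries of 1 group are separate cultures. The p-values therefore reflect the spread among these samples alone, and that spread may be technical. The reporter marks cells with Nrl promoter activity and not a single maturation state.

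A photoreceptor outer segment is a modified primary cilium, and the connecting cilium that joins it to the cell body corresponds to a transition zone. IFT-B complexes with kinesin-2 motors carry cargo toward the tip, and IFT-A complexes with the dynein-2 motor serve the way back. The BBSome is a coat-like adaptor that rides with these trains and removes membrane proteins that do not belong in the outer segment, and the transition zone acts as the gate. Loss of many of these genes causes photoreceptor degeneration in humans and mice.

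Levels are given in CPM, read counts scaled to library depth, recovered from the deposited gene values. The depth was lowest in iPSC day 28 (3867473 estimated counts) and highest in the second iPSC library of day 18 (21903247), so that 1 count was worth between 0.037 and 0.213 CPM. Rod markers were present in all libraries, with a sum over 7 genes of 47.3 to 9563 CPM, although Pde6a, a rod phosphodiesterase gene, was at 0 in 2 day 18 libraries. The day 18 libraries were uneven. The libraries labelled iPSC day 18 replicate 1 and ESC day 18 replicate 1 held Nrl at 16 and 17.7 CPM and the proliferation antigen Mki67 at 462 and 406 CPM, whereas the other day 18 libraries held Nrl at 136 to 881 CPM. Counts and subgroup medians that rest on day 18 are given with and without this low-Nrl pair. The Y-linked genes Ddx3y and Eif2s3y, summed, separated the sources, at 0.168 to 2.31 CPM in 5 iPSC libraries and 55.9 to 184 CPM in 8 ESC libraries. The library labelled iPSC day 18 replicate 2 went against its source at 103 CPM, as did that labelled ESC day 18 replicate 1 at 0.944 CPM, and iPSC day 25 replicate 1 lay between at 23.2 CPM. Without the first 2 of these, limma called 12 of the 41 genes at day 35, with 4.16% of all genes, and 16 by the trend, with 6.91%. In such sorted bulk samples, fewer cells of a type and less RNA per cell cannot be told apart.

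At day 35, 13 of the 41 genes had risen relative to day 18 and none had fallen. The test was limma on log2(CPM + 1) with source and day as factors, Benjamini-Hochberg adjusted over 15202 genes, and it called 7.53% of all genes in either direction, 4.54% as higher and 2.99% as lower. The 13 comprised all 7 BBSome subunits among the 41, the BBSome-recruiting GTPase Arl6, the transition zone genes Cep290, Rpgrip1 and Lca5, the kinesin-2 subunit Kif3b and the IFT-A subunit Wdr35. The median log2 difference was 0.76 over the 41 genes and 0.05 over all genes tested. By groups that did not overlap, 18 of the 41 were higher in both day 35 libraries than in every day 18 library, against 10.9% of all genes tested, and 13 were higher in all 4 libraries of days 28 and 35, against 5.25%. None of the 41 lay wholly below day 18 in either comparison, where 10.1% and 3.91% of all genes did. A linear trend over all days called 19 of the 41, all with rising levels, where 12.1% of all genes were called, 6.81% as rising and 5.29% as falling. Without the low-Nrl pair 1 gene (Bbs5, 2.20, adjusted p = 0.0428) was called at day 35, with 0.993% of all genes, and 11 by the trend, with 5.26% of all genes, and 14 of the 41 had all 4 late libraries above the 3 day 18 libraries that remained, against 5.89% of all genes. Without the iPSC day 35 library 7 were called by the trend, with 3.66% of all genes. That fit leaves 1 library at day 35, too few to read a count there. Other single libraries left out gave 3 to 17 at day 35. Beside the 3 (without iPSC day 18 replicate 1) 2.33% of all genes were called, and beside the 17 (without iPSC day 18 replicate 2) 9.61%.

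**Figure D1:**
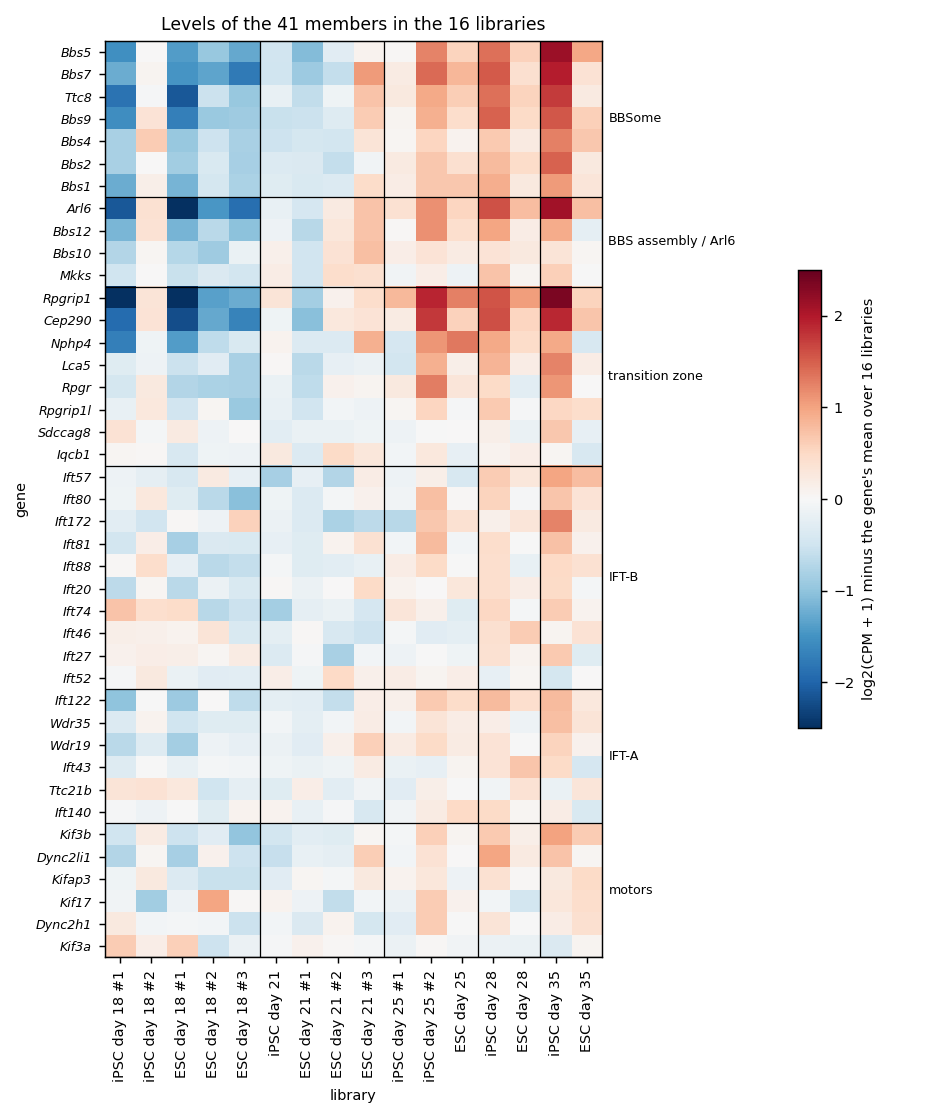
Level of each of the 41 genes (rows, grouped by subgroup) in each of the 16 libraries (columns, by day, iPSC left of ESC within a day), as log2(CPM + 1) minus the gene's mean over the libraries; colours saturate at 2.5. BBSome genes, Arl6, Rpgrip1 and Cep290 run from blue at day 18 to red at days 28 and 35, most IFT and motor genes stay pale, and iPSC day 18 replicate 2 is redder than the other day 18 libraries.

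All 7 BBSome subunits among the 41 genes rose by day 35. Bbip1, a further BBSome subunit outside the 41, was at 44.5 and 43.1 CPM in the iPSC and ESC libraries of day 35. At day 18 it was at 45.4 and 51.1 CPM in the iPSC and 35.6, 35.8 and 35.4 CPM in the ESC libraries. The Bbip1 groups thus overlapped. Bbs5 (chr2:69647171-69667571 on GRCm38), a phosphoinositide-binding subunit, was at 173 CPM in the iPSC and 75.5 CPM in the ESC library of day 35, against 12.5 and 38.6 CPM in the iPSC and 14.0, 19.4 and 15.3 CPM in the ESC libraries of day 18. Both day 35 values lay above all 5 day 18 values. The group means were 124 ± 69.1 CPM (SD, n = 2) at day 35 and 20.0 ± 10.7 CPM (n = 5) at day 18, a log2 difference of 2.54 ± 0.44 (SE; adjusted p = 0.00767, limma). Bbs2, a structural subunit, was at 170.5 and 72.0 CPM in the iPSC and ESC libraries of day 35, against 33.9 and 60.7 CPM in the iPSC and 32.6, 46.1 and 33.8 CPM in the ESC libraries of day 18. Its groups did not overlap, although the ESC day 35 value was close to the highest day 18 value (log2 difference 1.41 ± 0.28, adjusted p = 0.0149).

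Bbs4, a repeat-rich subunit that also works at centriolar satellites, was at 129.9 CPM in iPSC and 86.5 CPM in ESC cells of day 35, against 30.2 and 83.9 CPM in iPSC and 27.4, 37.2 and 30.3 CPM in ESC cells of day 18. A single day 18 library, iPSC replicate 2, came close to the ESC day 35 value (log2 difference 1.42 ± 0.36, adjusted p = 0.0316). Bbs9, a scaffold subunit, was at 139.9 and 71.3 CPM in the iPSC and ESC libraries of day 35, against 15.4 and 59.8 CPM in the iPSC and 13.6, 24.3 and 24.8 CPM in the ESC libraries of day 18. Again the groups were apart and iPSC day 18 replicate 2 was the nearest (1.99 ± 0.49, adjusted p = 0.0309). The remaining subunits Bbs7, Ttc8 and Bbs1 rose by log2 differences of 2.25, 2.05 and 1.37. Over the 7 subunits the median was 1.99, and all 7 were also called by the trend, with a median of 0.13 log2 units per day against 0.001 for all genes. Without the low-Nrl pair the median at day 35 was 1.42, 7 of 7 had an unadjusted p under 0.05, 1 was called at day 35 and 6 by the trend, all but Bbs1. With all libraries 3842 of the 15202 genes had such an unadjusted p by limma at day 35. No all-gene count is given without the pair.

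**Figure D2:**
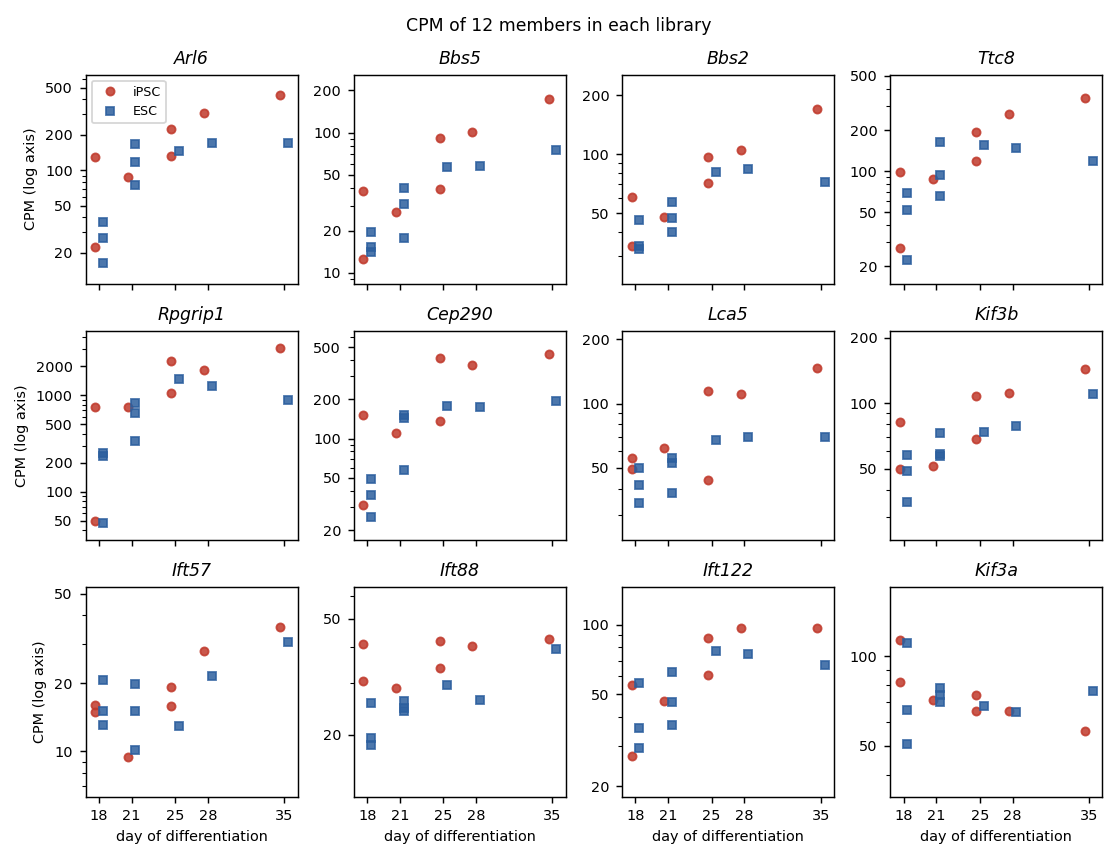
CPM (log axis) against day of differentiation for 12 of the genes; each point is 1 library, red circles iPSC and blue squares ESC, drawn side by side within a day. Arl6, Bbs5, Ttc8, Rpgrip1 and Cep290 differ over 10-fold between their lowest day 18 library and the highest late library, Ift88 and Ift122 less, and Kif3a runs flat or down.

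Arl6 (chr16:59612949-59639391), the small GTPase that brings the BBSome to membranes, had the second largest difference of the 41 genes, at 2.88, and 2.28 without the low-Nrl pair. It was at 433 CPM in the iPSC and 169 CPM in the ESC library of day 35, against 22.2 and 131 CPM in the iPSC and 16.4, 36.2 and 26.5 CPM in the ESC libraries of day 18. The groups did not overlap, and the day 18 libraries themselves spanned a wide range, with iPSC replicate 2 far above the others. Means were 301 ± 186 CPM (n = 2) at day 35 and 46.4 ± 47.6 CPM (n = 5) at day 18 (log2 difference 2.88 ± 0.57, adjusted p = 0.0145; trend 0.17 ± 0.04 per day, adjusted p = 0.00889). Mkks, Bbs10 and Bbs12, chaperonin-like proteins that help to assemble the BBSome, had positive differences that did not pass the test (0.63, 0.66 and 1.04). Bbs12 was at 50.3 and 22.2 CPM in the iPSC and ESC libraries of day 35, against 11.1 and 33.8 CPM in the iPSC and 11.1, 15.8 and 12.3 CPM in the ESC libraries of day 18. Those groups overlapped, since iPSC day 18 replicate 2 lay above the ESC day 35 library (adjusted p = 0.175).

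Both Ttc8 and Arl6 hold a short cassette exon whose share was larger in all libraries of days 28 and 35 than in any of day 18. Longer forms of these genes that contain the exon are known from the vertebrate retina. The deposited transcript values in TPM, which corrects for transcript length, were summed over coding transcripts with and without each exon, and the exons are shown in capitals with 30 bases of the neighbouring exons on either side, taken from GENCODE transcripts on GRCm38. The Ttc8 exon is 30 bases long, at chr12:98937120-98937149 on the plus strand, and the Arl6 exon is 13 bases long, at chr16:59618666-59618678 on the minus strand. With the exon the Ttc8 reading frame has 515 codons, without it 505, and that of Arl6 has 193 with it and 186 without it.
Ttc8 with the exon: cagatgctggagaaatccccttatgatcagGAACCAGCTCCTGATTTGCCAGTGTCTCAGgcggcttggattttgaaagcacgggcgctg
Ttc8 without the exon: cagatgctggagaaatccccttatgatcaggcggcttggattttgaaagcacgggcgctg
Arl6 with the exon: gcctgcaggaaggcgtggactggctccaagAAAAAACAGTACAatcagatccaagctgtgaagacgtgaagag
Arl6 without the exon: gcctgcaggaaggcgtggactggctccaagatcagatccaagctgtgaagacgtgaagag

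The Ttc8 exon was in 72.6% and 70.2% of spanning transcript TPM in the iPSC libraries of days 28 and 35 and in 69.2% and 62.3% in the ESC libraries. At day 18 it was in 10.9% and 48.2% in the iPSC libraries and in 2.4%, 47.3% and 39.0% in the ESC libraries. All 4 late libraries lay above all 5 day 18 libraries, and the low-Nrl pair gave the lowest shares. Means were 68.6% ± 4.4 (SD, n = 4) at days 28 and 35 and 29.6% ± 21.4 (SD, n = 5) at day 18. The gain was 39.0 percentage points, and 23.8 points without the low-Nrl pair.

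The Arl6 exon was in 81.4% and 72.0% of spanning TPM in the iPSC and 77.2% and 80.2% in the ESC libraries of days 28 and 35. At day 18 it was in 35.2% and 61.3% in the iPSC and 30.6%, 59.6% and 39.4% in the ESC libraries. These ranges were also apart, with a gain of 32.5 percentage points, and 24.3 points without the low-Nrl pair. In the days between, mean shares were 56.6% and 69.0% for Ttc8 and 62.6% and 69.7% for Arl6 at days 21 and 25.

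Of 810 such short exons in 576 genes (at most 51 bases, mean TPM of at least 3), 3.83% lay wholly above day 18 at days 28 and 35, and the median change was 0.50 points. A gain at least as large as that of Arl6 was found in 12 of the 810, Ttc8 and Arl6 included. Short exons of Wdr35, Dync2h1 and Kif3a, the other 3 found among the 41 genes, had shares that overlapped between days 28 and 35 and day 18, with means of 54.0%, 47.4% and 91.4% late and 42.4%, 40.0% and 96.3% at day 18. These shares rest on assigning reads to transcripts that differ by few bases, they were not tested, and for Ttc8 6 of 9 annotated transcripts were held in the table.

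**Figure D3:**
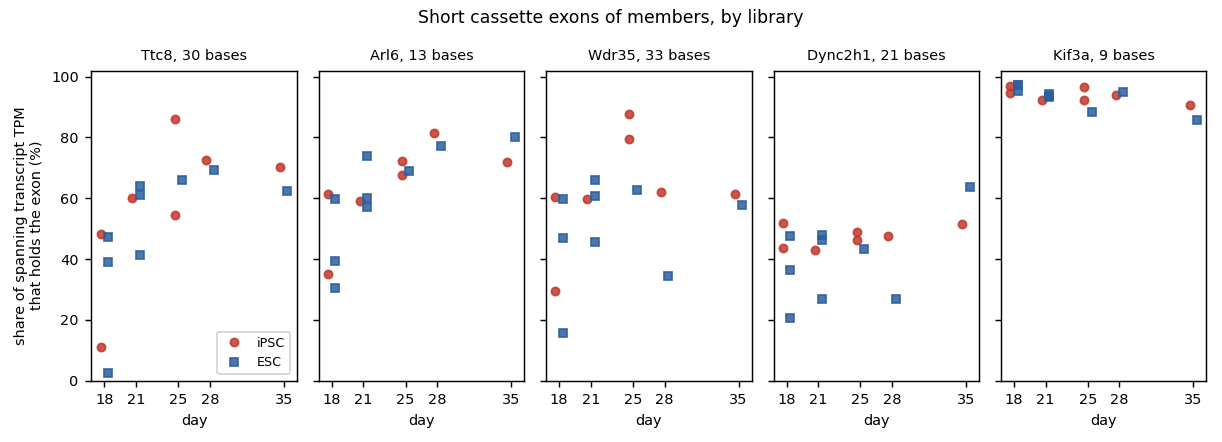
Share of the TPM of transcripts spanning a short exon that holds it (0 to 100%) against day, 1 panel per gene, each point 1 library (red circles iPSC, blue squares ESC). For Ttc8 and Arl6 all libraries of days 28 and 35, from 62.3% and 72.0% up, lie above all day 18 libraries, which reach 48.2% and 61.3%; the other panels overlap.

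Among the 8 transition zone genes, Rpgrip1, Cep290 and Lca5 rose and the others did not pass the test at day 35. Rpgrip1 (chr14:52110704-52163546), which holds the GTPase regulator Rpgr in the connecting cilium, was at 3087 CPM in the iPSC and 891 CPM in the ESC library of day 35, against 49.4 and 756 CPM in the iPSC and 47.3, 235 and 254 CPM in the ESC libraries of day 18. The groups did not overlap, but the ESC day 35 value was close to that of iPSC day 18 replicate 2, and the low-Nrl pair sat far below the rest. Its log2 difference of 3.30 ± 0.86 was the largest of the 41 genes and also the least precise (adjusted p = 0.0365). It was 2.07 without the low-Nrl pair (adjusted p = 0.0836), below Arl6 at 2.28 and Bbs5 at 2.20. Cep290 (chr10:100487558-100574840), which links microtubules to the membrane at the transition zone, was at 445 and 193 CPM in the iPSC and ESC libraries of day 35, against 30.8 and 152 CPM in the iPSC and 25.1, 48.8 and 36.8 CPM in the ESC libraries of day 18. The groups did not overlap (2.56 ± 0.58, adjusted p = 0.0227). Without the low-Nrl pair none of the 8 genes was called at day 35, and Cep290, Rpgrip1 and Lca5 were called by the trend. At day 35 4 had an unadjusted p under 0.05, with no all-gene count to compare.

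Lca5, which encodes lebercilin, an IFT-binding ciliary protein, was at 146 and 69.7 CPM in the iPSC and ESC libraries of day 35, against 49.5 and 55.6 CPM in the iPSC and 41.6, 49.7 and 34.4 CPM in the ESC libraries of day 18. Its groups were apart by a small margin in ESC cells (1.09 ± 0.31, adjusted p = 0.0491), and the call was lost with rescaled CPM (0.94, adjusted p = 0.0502). Rpgrip1l, a relative of Rpgrip1 in the transition zone of many cell types, was at 37.8 and 35.8 CPM in the iPSC and ESC libraries of day 35, against 22.8 and 31.5 CPM in the iPSC and 18.5, 27.4 and 13.4 CPM in the ESC libraries of day 18. It passed the trend test (0.044 ± 0.014 per day, adjusted p = 0.0431) but not the day 35 test (0.70, adjusted p = 0.125). Rpgr was likewise called by the trend alone (0.058 per day, adjusted p = 0.0490), and Nphp4, a nephrocystin of the gate, had a difference of 1.11 that was not called (adjusted p = 0.237). The day 35 differences of Sdccag8 and of Iqcb1, a partner of Cep290, were 0.13 and -0.09, with 95% intervals of -0.34 to 0.60 and -0.55 to 0.36.

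**Figure D4:**
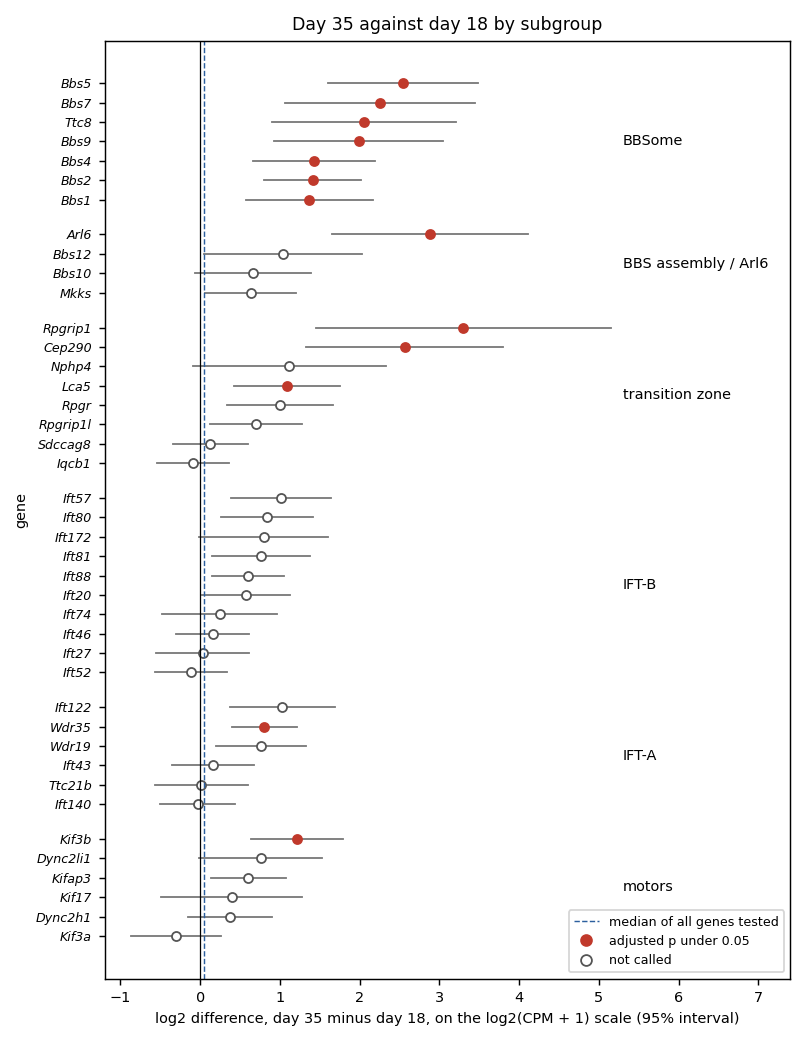
Log2 difference of each gene, day 35 minus day 18 on the log2(CPM + 1) scale, with its 95% interval from limma, by subgroup; filled points have an adjusted p under 0.05 and the dashed line is the median of all genes tested (0.05). All 7 BBSome points are filled, as are Arl6, Rpgrip1, Cep290, Lca5, Wdr35 and Kif3b, and the IFT points lie between -0.11 and 1.03.

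The IFT genes had smaller differences than the BBS genes. Of 16, Wdr35 was called at day 35 and 5 were called by the trend, and the median day 35 difference was 0.59. Ift57, an IFT-B subunit at the outer side of the train, was at 35.6 and 30.5 CPM in the iPSC and ESC libraries of day 35, against 16 and 14.9 CPM in the iPSC and 13.1, 20.7 and 15.1 CPM in the ESC libraries of day 18. The groups were apart, with a difference of 1.02 ± 0.29 that just missed the threshold at day 35 (adjusted p = 0.0510) and passed in the trend (0.064 ± 0.017 per day, adjusted p = 0.0248). Ift80, another peripheral IFT-B subunit, was at 96.0 and 74.9 CPM in the iPSC and ESC libraries of day 35, against 54.9 and 71.4 CPM in the iPSC and 47.7, 36.8 and 28.2 CPM in the ESC libraries of day 18. Here iPSC day 18 replicate 2 nearly reached the ESC day 35 value (trend 0.049 ± 0.014 per day, adjusted p = 0.0302).

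Ift88, a core IFT-B subunit needed for outer segments in mice, was at 42.8 and 39.3 CPM in the iPSC and ESC libraries of day 35, against 30.6 and 40.9 CPM in the iPSC and 25.7, 18.4 and 19.5 CPM in the ESC libraries of day 18. Its groups overlapped, and its trend was 0.035 ± 0.011 per day (adjusted p = 0.0425). No other IFT-B subunit was called. Without the low-Nrl pair no IFT gene was called by limma at day 35 or by the trend. An unadjusted p under 0.05 was found for 5 and 7 of 16, with no all-gene count to compare. Ift81 and Ift172 had day 35 differences of 0.76 and 0.79 that did not pass, and those of Ift20, Ift74, Ift46, Ift27 and Ift52 were between -0.11 and 0.57. Ift46 and Ift57 were the 2 genes of the 41 with all libraries of days 28 and 35 above all 7 libraries of days 21 and 25, against 1.09% of all genes tested. None lay wholly below, against 1.98%.

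In IFT-A, Wdr35 was at 104 and 77.2 CPM in the iPSC and ESC libraries of day 35, against 48.1 and 65.1 CPM in the iPSC and 42.7, 49.2 and 49.4 CPM in the ESC libraries of day 18. Both day 35 values were above all day 18 values (0.80 ± 0.19, adjusted p = 0.0261). Ift122, a subunit of the IFT-A core, was at 97.0 and 67.0 CPM in the iPSC and ESC libraries of day 35, against 27.1 and 55.0 CPM in the iPSC and 29.2, 56.0 and 35.6 CPM in the ESC libraries of day 18. The groups did not overlap, and the gene was called by the trend (0.071 ± 0.018 per day, adjusted p = 0.0169) and not at day 35 (1.03 ± 0.31, adjusted p = 0.0573). Wdr19 had a difference of 0.76 (adjusted p = 0.0911), and the differences of Ift43, Ift140 and Ttc21b were 0.16, -0.03 and 0.02.

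Of the 3 subunits of heterotrimeric kinesin-2, Kif3b was called and Kif3a and Kifap3 were not. Kif3b, a motor subunit, was at 143 and 111 CPM in the iPSC and ESC libraries of day 35, against 49.9 and 82.1 CPM in the iPSC and 49.0, 58.0 and 35.1 CPM in the ESC libraries of day 18. It lay above every day 18 library and rose (1.21 ± 0.27, adjusted p = 0.0210; trend 0.073 ± 0.013 per day, adjusted p = 0.00372), and without the low-Nrl pair it was called by the trend alone. Its partner Kif3a was at 56.3 and 76.3 CPM in the iPSC and ESC libraries of day 35, against 114 and 81.6 CPM in the iPSC and 110.3, 50.6 and 65.7 CPM in the ESC libraries of day 18. The low-Nrl pair held its highest values, and its difference of -0.30 was not called (95% interval -0.87 to 0.26). Kifap3, the accessory subunit, was at 116 and 137 CPM in the iPSC and ESC libraries of day 35, against 90.5 and 116 CPM in the iPSC and 76.8, 66.5 and 66.6 CPM in the ESC libraries of day 18. Those groups met at iPSC day 18 replicate 2 (0.60 ± 0.22, adjusted p = 0.105).

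Among the other motor subunits, the dynein-2 heavy chain Dync2h1 and its light intermediate chain Dync2li1 had differences of 0.37 and 0.76 that were not called. Kif17, a homodimeric kinesin-2, ran at 0.87 to 5.77 CPM, the lowest level of the 41 genes in all libraries but ESC day 18 replicate 2, where Bbs10 was lower, and was not called either. The difference between Kif3b and Kif3a was not itself tested.

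By subgroup, the median day 35 difference was 1.42 for the 11 BBS genes (8 called), 1.04 for the 8 transition zone genes (3 called), 0.59 for the 16 IFT genes (1 called) and 0.50 for the 6 motor genes (1 called), beside 0.05 for all genes. Rescaling CPM to the same sum in every library lowered the median of all genes by 0.13, to -0.09, and gave 1.27, 0.89, 0.44 and 0.36 in the same order. Without the low-Nrl pair the medians were 1.20, 0.76, 0.55 and 0.48. Within iPSC libraries the BBS median was 1.89, and within ESC libraries 1.43, each with 1 library at day 35. Each source also held a day 18 library whose Y-linked level went against its label. These medians describe the genes, and the difference between subgroups was not tested. At day 21 the median of the BBS genes was 0.70 and that of the IFT genes 0.07, at day 25 they were 1.16 and 0.25, and at day 28 1.27 and 0.40. These medians without the low-Nrl pair were 0.43 and 0.003 at day 21, 0.78 and 0.25 at day 25, and 0.96 and 0.37 at day 28. With rescaled CPM the day 21 median of the IFT genes turned to -0.07, with all genes at -0.11. No member was called in these 3 comparisons by limma, where 0%, 0.0395% and 0.579% of all genes were called, at day 28 0.507% as higher and 0.0724% as lower. An unadjusted p under 0.05 was found for 10, 17 and 22 members, against 2854, 3707 and 3342 of the 15202 genes, so the day 21 share was near the background. It was found for 1, 10 and 13 members without the low-Nrl pair. No all-gene count at that level is set beside these, so they cannot be compared with a background. Of the 24 members with complete gene sums, edgeR called 0, 0 and 1, with 0%, 0.295% and 0.52% of all genes, and DESeq2 called 0, 8 and 8, with 1.17%, 10.4% and 7.58% of all genes.

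In the days between, the genes with the largest differences were already above most day 18 libraries and varied among libraries of 1 day. Arl6 was at 88.7 CPM in the iPSC and 75.2, 118 and 166 CPM in the ESC libraries of day 21, at 132 and 224 CPM in the iPSC and 146 CPM in the ESC libraries of day 25, and at 304 CPM in the iPSC and 171 CPM in the ESC library of day 28. Rpgrip1 was at 756 CPM in the iPSC and 336, 650.2 and 822 CPM in the ESC libraries of day 21, at 1056 and 2268 CPM in the iPSC and 1460.3 CPM in the ESC libraries of day 25, and at 1806 CPM in the iPSC and 1256 CPM in the ESC library of day 28. In ESC libraries both genes were thus near their day 35 level, or above it, by day 25, whereas in iPSC libraries their highest values were those of day 35. Bbs5 was at 27.4 CPM in the iPSC and 17.6, 31.2 and 40.6 CPM in the ESC libraries of day 21, at 39.4 and 92.0 CPM in the iPSC and 57.3 CPM in the ESC libraries of day 25, and at 101 CPM in the iPSC and 57.9 CPM in the ESC library of day 28. Its levels at days 18 and 21 overlapped, and the day 35 library was the highest in each source.

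**Figure D5:**
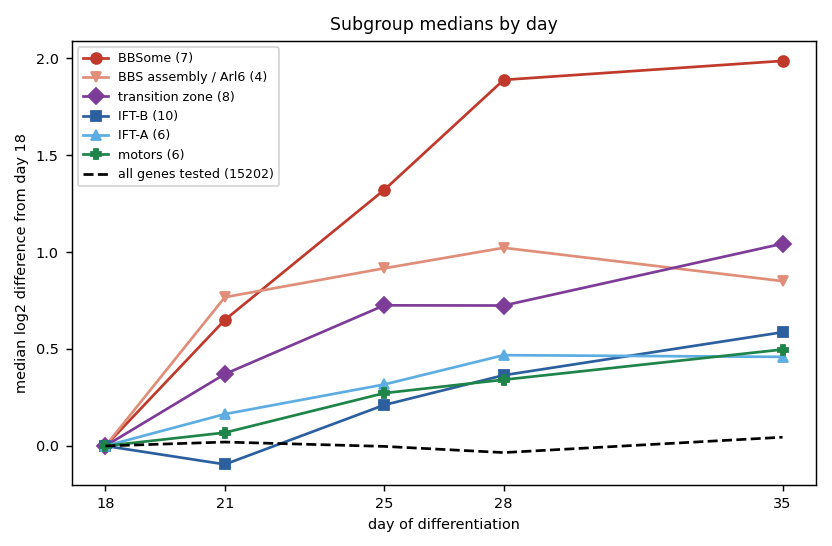
Median log2 difference from day 18 at days 21, 25, 28 and 35 for each subgroup (number of genes in brackets) and for all 15202 genes tested (dashed). The BBSome line reaches 1.99 at day 35, the lines of IFT-B, IFT-A and motors stay at or below 0.59, and the all-gene line stays between -0.03 and 0.05.

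Spread within day 18 was itself larger for the BBS genes. The highest minus the lowest of the 5 day 18 libraries, on the log2(CPM + 1) scale, had a median of 1.55 over the BBS genes, 1.12 over the transition zone genes, 1.04 over the motors and 0.73 over the IFT genes, against 0.96 over all genes tested. All 11 BBS genes had their highest day 18 level in iPSC replicate 2. The rod marker sum was also highest there, at 2509 CPM, and was 468 and 1043 CPM in ESC replicates 3 and 2, and 47.3 and 50.7 CPM in the low-Nrl pair. Sums of the retinal progenitor markers were 509, 914, 63.7, 1822 and 1799 CPM in the same order. The part of these differences in the rise of the BBS genes was not tested.

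The comparison of days 28 and 35 with days 21 and 25 leaves day 18 out of the contrast. No member was called by limma, where 1.47% of all genes were, 0.691% as higher and 0.776% as lower, and 38 of 41 differences were positive. Of the 41, 9 had an unadjusted p under 0.05, against 2488 of the 15202 genes. With edgeR 0 of 24 were called, with 1.33% of all genes, and with DESeq2 2 of 24, with 6.85% of all genes, a share near the background. The 7 BBSome subunits among the 41 had a median difference of 0.71 with 4 of 7 at an unadjusted p under 0.05, led by Bbs5 (1.16 ± 0.33, adjusted p = 0.0948), and the nearest to a call was Ift57 (0.93, adjusted p = 0.0539).

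Source of the stem cells was compared with day in the model. No member and no gene of the 15202 (0%) was called between iPSC and ESC libraries by limma, edgeR and DESeq2 likewise called none of 24 members, and 840 of all genes and 4 members had an unadjusted p under 0.05. These were Ift80, Ift88, Rpgr and Lca5, with iPSC minus ESC differences of 0.43, 0.44, 0.57 and 0.44, each with an adjusted p of 0.753. Differences were positive for 36 of 41 members, and for 31 of 41 without the day 18 libraries labelled iPSC replicate 2 and ESC replicate 1, whose Y-linked levels went against their source. At day 35 the iPSC library was above the ESC library for 34 of 41 members, against 52.9% of all genes tested, and at day 28 for 35 of 41, against 51.2%. By subgroup these were 11 of 11 BBS, 8 of 8 transition zone, 13 of 16 IFT and 2 of 6 motor genes at day 35, and 11, 7, 11 and 6 at day 28. These are single pairs of libraries with no replicate check. The pair at day 35 also differed in its markers, with rod sums of 9563 CPM in iPSC and 3412 CPM in ESC, pigment epithelium sums of 92.7 and 2091 CPM and Müller glia sums of 121 and 1111 CPM, and their part in the result was not tested. The pigment epithelium sum was almost all Ttr, at 91.3 CPM in iPSC and 2072 CPM in ESC. Tyr, Mlana, Best1 and Rpe65 were at 0.905, 0.306, 0.185 and 0 CPM in that iPSC library. In the ESC library they were at 17.2, 1.06, 0.219 and 0.045 CPM. The slope per day within iPSC cells called 9 members, with 8.48% of all genes, and that within ESC cells 0, with 0.697% of all genes. Each of these fits held a day 18 library whose Y-linked level went against its source. They were not repeated without it, so they cannot separate the sources cleanly. The difference of the slopes called 0 of 15202 genes (1233 with an unadjusted p under 0.05), and 1 member, Ttc21b, had an unadjusted p under 0.05.

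Levels between genes were compared per length, as TPM, for the 24 members whose annotated transcripts were all in the deposited transcript table. Summed over all annotated transcripts, coding or not, Rpgrip1 was highest, with a mean over 16 libraries of 932 TPM. It was followed by Arl6 at 347, Bbs5 at 143, Bbs2 at 94.0 and Bbs7 at 83.4 TPM. IFT subunits ran from 72.7 TPM for Ift20 to 14.7 TPM for Ttc21b, and Kif17 was lowest at 2.15 TPM. Rpgrip1 averaged 1942 TPM at day 35, against 264 TPM at day 18. The order differed by day, since at day 18 Kif3a at 73.6 and Bbs2 at 61.2 TPM were above Bbs5 at 59.1 TPM. In ESC day 18 replicate 1 Kif3a, at 101 TPM, was above Rpgrip1 at 51 and Arl6 at 45.9 TPM. Most Rpgrip1 signal was assigned to transcripts that were not annotated as protein coding. Retained-intron transcripts held 48.2% of its TPM on average (35.8% to 58.1% over libraries), transcripts annotated for nonsense-mediated decay 34.1%, and coding transcripts 17.7% (7.85% to 26.0%). That coding share was the lowest of the 24 genes, whose median was 72.8%. It was 100% for Arl6, 58.0% for Bbs5, 45.9% for Bbs2 and 94.0% for Bbs7. By coding transcripts alone Rpgrip1 thus lay below Arl6, and Bbs2 below Bbs7.

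Promoter sequences from RefSeq on GRCm38.p6, from 250 bases before to 50 after each start, were matched by symbol for 36 of the 41 genes, some with more than 1 start, which gave 41 promoters. An X-box, the site of the RFX factors that activate ciliary genes, was searched on both strands as GTNNCC, 0 to 3 bases and GGNAAC. It was in 7 of these 41 promoters (17.1%), which belonged to Ift57, Bbs1, Bbs4, Bbs7, Nphp4 and Lca5, and in 2.34% of all 32851 promoters. The matches of the 5 genes called at day 35 or by the trend are shown in capitals, as they read on the strand of the gene (a match on the other strand appears as its reverse complement), with 7 or 8 bases on either side; Ift57 has a pair, and none is longer than 30 bases in all.
Ift57, chr16:49699199-49699228, plus strand: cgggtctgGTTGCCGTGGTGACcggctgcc
Ift57, chr16:49699226-49699254, plus strand: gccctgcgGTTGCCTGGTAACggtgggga
Bbs1, chr19:4906605-4906634, minus strand: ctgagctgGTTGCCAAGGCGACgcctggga
Bbs4, chr9:59353464-59353493, minus strand: ctcagctgGTCGCCCGGGAAACggtcggct
Bbs7, chr3:36613489-36613518, minus strand: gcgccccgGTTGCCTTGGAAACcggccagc
Lca5, chr9:83441138-83441166, minus strand: gagtccaGTAACCAATGGGAACtggggga

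The shorter motif GGCAAC, which can overlap an X-box, was in 36.6% of the members' promoters and 12.5% of all promoters, and TAATCC, a core of sites of the photoreceptor factor Crx, in 4.88% and 7.06%. The TAATCC matches belonged to Bbs1 and Rpgrip1. X-box matches occurred in genes that were called and in Nphp4, which was not, and most called members had none in this window. A match is a description of letters and was not tested for binding.

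A further 44 ciliary genes were read in the same fits, of which 43 were found. Of these, 5 were called at day 35, all higher, beside 7.53% of all genes (4.54% as higher), with a median of 0.57 over the 43. The trend called 10, all rising, beside 12.1% of all genes (6.81% as rising). Without the low-Nrl pair the day 35 count was 0, beside 0.993% of all genes. An unadjusted p under 0.05 was found for 13, with no all-gene count to compare. The trend then called 4, beside 5.26% of all genes. Ahi1 and Cc2d2a of the transition zone rose by 1.35 and 1.71 at day 35, and Ttc30b, an IFT-B subunit, by 1.77. Wdr60, a dynein-2 intermediate chain, was the single one called at day 28 (2.81, adjusted p = 0.0414), beside 0.579% of all genes. In the trend the smallest p-values were those of Ahi1, Cc2d2a and Ttc30b, at 0.083, 0.10 and 0.11 per day. Ahi1 was also called between days 28 and 35 and days 21 and 25 (0.92, adjusted p = 0.0302), beside 1.47% of all genes. The 10 markers of multiciliated cells, whose motile cilia use the same trains, summed to 30.9 to 182 CPM, with the highest sum in ESC day 35 and most of it from Ccdc39. Their regulator Foxj1 and the axonemal dynein genes Dnah11, Dnah9 and Dnah5 were also highest in ESC day 35, at 16.5, 19.2, 14.0 and 5.96 CPM. In iPSC day 35 they were at 5.25, 0.989, 2.96 and 0.19 CPM. Of the other markers, Ccdc39, Tekt1 and Hydin were likewise highest in ESC day 35. Rsph1 and Ccdc40 were instead highest in iPSC day 18 replicate 1, and Tekt4 in ESC day 21 replicate 3. The part of multiciliated cells in the results was not tested.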

How the data were processed

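The members were the 41 named genes, and they and the lists were chosen with earlier results of these data known. Per the submitters' processing notes and the design text, the authors used Trimmomatic 0.36 for trimming, kallisto 0.42.5 on Ensembl release 84 transcripts (GRCm38.p4) for quantification, and tximport and edgeR for gene values. Whether the counting used strand is not given in the sources used here, so a gene and its antisense partner cannot be told apart. The deposited gene table is on a transformed scale with values from -1 to 198.2, and CPM was recovered as 2 to the power of the square root of (value + 1), minus 1. The ratio of this CPM to summed TPM was constant over libraries for 98.6% of 7692 genes, at a tolerance of 0.001 log2 units. CPM columns sum to 642418 to 885155.

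Per transcript, the authors deposited TPM and estimated counts for 65535 transcripts, which cover all annotated transcripts of 24 members. Library totals were rebuilt from the tables, and intervals from counting were not given. Tests used limma 3.58.1 in R 4.3.3 with trend on log2(CPM + 1), which understates the change of low genes, for the 15202 genes that reached a CPM of 1 in 2 or more libraries. The threshold was a Benjamini-Hochberg adjusted p of 0.05. All 41 members passed that filter. Day contrasts had source and day as factors, the trend had day as a number, and days 28 and 35 rest on a spread pooled over all 16 libraries. The fits were also run on simulated counts with the same dispersion for all genes and changes linear in day. That simulation held no uneven day 18 libraries, so it cannot show how the fits behave with them.

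Genes given in every library were, per subgroup, up to 4 called members with the smallest trend p, or 2 where fewer were called, and of the other ciliary genes up to 3 called per comparison. Kif3a and the genes named in counts were added after their values were seen. Exon shares and promoter matches are descriptions, and the exon limits were set after the data were seen. Alternatives were a pseudocount of 0.1, no filter, CPM of at least 5, rescaled CPM, edgeR 4.0.16 and DESeq2 1.42.0 on gene sums of the deposited estimated counts rounded to whole numbers, a replicate block, array weights, each library left out, either source alone, and removal of the low-Nrl pair or of the day 18 libraries labelled ESC replicate 1 and iPSC replicate 2, whose Y-linked genes went against their source, both chosen after seeing the data.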

Additional observations from a re-analysis of the deposited data

Results flagged for a closer look

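Within days 18 and 21, 4 of 82 sets of libraries held a value far from the others, and chance flags about 1 in 20. Bbs4 was at 83.9 CPM in iPSC day 18 replicate 2, with the other day 18 libraries at 27.4 to 37.2 CPM. Bbs7 was at 63.8 CPM in the same library, with the others at 17.3 to 25.1 CPM. Bbs1 was at 103.5 CPM in ESC day 21 replicate 3, with the other day 21 libraries at 57.3 to 60.4 CPM, and Bbs4 at 67.4 CPM, with the others at 37.1 to 39.2 CPM. All 4 values belong to BBSome subunits, in libraries with Nrl at 881 and 1915 CPM, the highest of their days. Values from the same library are not separate observations, and the number of flags is near that given by chance.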

How the results depend on the processing

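For day 35 against day 18, where limma called 13 members, the count was 6 with no filter, 4 with array weights, 1 without the low-Nrl pair and 6 of 24 with edgeR. These settings called 3.22%, 1.92%, 0.993% and 7.31% of all genes. DESeq2 gave 12 of 24, with 17.4% of all genes, and a replicate block 24, with 19.4%. Within ESC and within iPSC, with 1 library at day 35, the median differences of the members were 0.70 and 0.88. Fits within a source kept the day 18 libraries whose Y-linked genes went against their source. Leaving out 1 library gave 0 to 17, with 0 without iPSC day 35, 3 and 5 without iPSC and ESC day 18 replicate 1, 5 without ESC day 35 and 8 without ESC day 18 replicate 3. The trend, with 19 members, gave 11 without the low-Nrl pair, 0 within ESC, 9 within iPSC and 12 of 24 with edgeR. These settings called 5.26%, 0.697%, 8.48% and 13.6% of all genes. DESeq2 gave 17 of 24, with 21.7%. With 1 library left out the trend gave 7 to 23, the lowest without iPSC day 35, with 3.66% of all genes. The 23 were found without ESC day 21 replicate 3 and without ESC day 35, with 15.4% and 22.1% of all genes. No member was lower in any of these settings of day 35 and the trend. At day 35, removal of iPSC or ESC day 18 replicate 1 left 2.33% and 3.38% of all genes called. Removal of ESC day 18 replicate 3 left 4.9%, and that of iPSC day 18 replicate 2, with 17 members, 9.61%. For days 21, 25 and 28 against day 18 and for days 28 and 35 against days 21 and 25, all 0 by limma, array weights gave 26, 32 and 26 for the first 3, of which 6, 4 and 1 were lower, and they called 37.4% to 62.8% of all genes. The replicate block gave 16, 22 and 4 for all but day 21, with 14.2%, 15.9% and 2.62% of all genes, and DESeq2 8, 8 and 2, with 10.4%, 7.58% and 6.85%. The filter at CPM of 5 gave 1 at day 28 and 1 for the late days, with 0.924% and 1.68%. Rescaled CPM gave 2 and 1, with 0.813% and 1.66%. Removal of the pair with discordant sex-linked genes gave 2 at day 25 and 1 at day 28, with 0.725% and 0.442%. With edgeR 1 was called at day 28, with 0.52%. Leaving out 1 library gave 0 to 1, 0 to 13, 0 to 11 and 0 to 1, with 13 and 11 without iPSC day 18 replicate 2, and 5 at day 25 without iPSC day 25 replicate 1. Beside the 13, 11 and 5, the shares of all genes called were 6.61%, 3.55% and 2.35%. At day 28, removal of ESC day 18 replicate 2 gave 4, of ESC day 21 replicate 3 gave 3, and of ESC day 35, iPSC day 25 replicate 1 or iPSC day 35 gave 1. Beside the 4 and 3, the shares of all genes called were 1.73% and 1%, and without iPSC day 25 replicate 1 the share was 0.745%. The source comparison stayed at 0. The cause of these changes was not tested, and fits with libraries left out also rest on a smaller number of libraries. Whether replicate numbers pair libraries was not settled. Of 13 correlations of deviations between same-numbered libraries 3 were under 0.1, but none between differently numbered libraries were set beside them. The 13 ran from 2.4e-05 to 0.64, with 0.31, 0.06 and 0.25 for the 3 ESC pairs of days 18 and 21 and 0.60 and 0.22 for iPSC and ESC at day 18. Both values for iPSC days 18 and 25 were 0.38 and are not separate, since each group held 2 libraries. These values cannot decide on pairing, and the block is given here only. Of 1548 values of 19 named genes under alternatives, 1306 kept direction and side of the threshold, 210 lost and 27 gained a call, and 5 reversed, all for the late days: Rpgr, at 0.08 with all libraries and -0.072 to 0.23 with 1 left out, to -0.020 without iPSC day 21, -0.072 without iPSC day 25 replicate 1 or iPSC day 35 and -0.21 within ESC, and Bbs1, at 0.44, to -0.022 within ESC. Groups of 1 or 2 libraries at days 28 and 35 limit what these tests can show.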
